A study of Mus musculus with 48 samples.

Results

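The 37 genes described here encode the enzymes and carriers of mitochondrial and peroxisomal fatty acid oxidation in the mouse liver, together with the peroxisomal membrane protein Pex11a and the pantetheinase Vnn1. They were taken as a list of gene symbols, drawn up with earlier results of these data known, out of 20486 genes with a measured probe, and where a gene had several probes the one with the brightest average signal stood for it. All 37 had a probe that was kept, and each was well above background on all 48 arrays. Gene expression was measured on Agilent one-colour microarrays hybridised with liver RNA, 1 array per mouse and 6 mice in each of 8 groups, so the spread given below is that between mice. All mice were males with floxed p110α alleles, the catalytic subunit of PI3Kα that carries the insulin signal in hepatocytes. The p110αhep+/+ mice carried no Cre and were the littermates of the p110αhep-/- mice. The p110αhep-/- mice carried 1 copy of Cre under the albumin promoter, from a C57BL/6J line, which deletes the floxed exons in hepatocytes and leaves the other cells of the liver with p110α. From 12 weeks of age the mice of both genotypes ate a control (CTRL) diet or a high fat diet (HFD), in which 60% of the calories came from fat, for 12 weeks. They were killed at zeitgeber time 16, in the dark phase, either fed ad libitum or after 24 h without food. The question put to these genes was how they responded to fasting and whether that response depended on the diet and on hepatocyte p110α.

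Long chain fatty acids are activated to acyl-CoA, carried into mitochondria as carnitine esters, and shortened there in repeated rounds of dehydrogenation, hydration, a second dehydrogenation and thiolysis. Electrons from the acyl-CoA dehydrogenases pass through the electron transfer flavoprotein to the respiratory chain. Very long chain, dicarboxylic and branched fatty acids are shortened in peroxisomes, whose products leave as carnitine esters or free acids. In the fasted liver this pathway feeds ketogenesis, and many of its genes are known targets of the nuclear receptor PPARα, which binds DNA with RXR and responds to fatty acids. Insulin acting through PI3K is known as a brake on the fasting programme of the hepatocyte.

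The precision was limited by the number of arrays, since hybridisation signals have no read depth. Between 52.3% and 59.3% of the spots of an array were well above background, no spot was saturated, and between 92 and 151 spots per array were left out as outliers. The array with the lowest weight in the fit (0.354) was replicate 3 of the fed p110αhep-/- mice on HFD, against a median weight of 0.948. Pik3ca, the targeted gene, was read by a probe at chr3:32364747-32364806 (mm9) whose position relative to the deleted exons was not determined here, so it does not check the genotypes. Its log2 signal averaged 12.89 ± 0.11 in fed p110αhep+/+ and 13.23 ± 0.11 in fed p110αhep-/- mice on CTRL diet (SD, n = 6), with a log2 fold change between genotypes of 0.39 (limma adjusted p = 0.000419). The fold change was 0.08 in fasted mice on CTRL diet (limma adjusted p = 0.531). On HFD it was 0.58 in fed and 0.25 in fasted mice (limma adjusted p = 2.99e-07 and 0.0172). The signal was thus lower in p110αhep-/- mice in none of the 4 comparisons. Hepatocyte markers stood at a high level in every group, with the mean of the 6 genes at 16.58 to 17.12 in p110αhep+/+ and 16.97 to 17.37 in p110αhep-/- mice. 1 of the 6 stood at percentile 99.99 of all genes and another at 99.98, where quantile normalisation holds values nearly fixed. This level is therefore no check of the share of hepatocytes. In bulk liver RNA, fewer cells of a type and less RNA per cell cannot be told apart.

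RefSeq promoter windows (GRCm38.p6, 250 bases before to 50 bases after the annotated start) were found for 29 of the 37 genes, 31 windows in all. They were read for AGGTCA, the hexamer bound by nuclear receptors of the PPAR and RXR class, and for AGGTCANAGGTCA, the direct repeat of it spaced by 1 base, on both strands. A hexamer lay in 5 of the 31 windows (16.13%, against 16.26% of all 32851 windows of the table), in Acadm, Acadvl, Cpt1a, Phyh and Scp2. No window held the repeat exactly or with 1 mismatch over its 12 defined bases, as 0.04% and 0.55% of all windows did. With up to 2 mismatches it was found in 2 windows, Slc25a20 and Etfa (6.45%, against 3.86% of all). Windows of 6 genes are shown, 5′ to 3′ in the direction of the gene: Slc25a20 for a repeat with 2 mismatches, as Etfa also had, Cpt1a and Acadm for a hexamer in a carnitine shuttle and a dehydrogenase gene, Ehhadh and Pex11a because their fasting response differed between genotypes, and Hadha because it shares its window with Hadhb. Capitals mark the repeat with 2 mismatches in Slc25a20 and the hexamer, read as TGACCT on the opposite strand, in Cpt1a and Acadm.
Slc25a20, chr9:108661886-108662185, plus strand: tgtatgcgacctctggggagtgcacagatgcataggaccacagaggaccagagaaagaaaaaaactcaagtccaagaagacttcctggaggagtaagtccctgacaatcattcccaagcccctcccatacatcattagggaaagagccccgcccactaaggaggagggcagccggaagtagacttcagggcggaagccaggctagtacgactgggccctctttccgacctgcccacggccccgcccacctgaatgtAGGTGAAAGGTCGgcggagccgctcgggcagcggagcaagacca
Cpt1a, chr19:3323051-3323350, plus strand: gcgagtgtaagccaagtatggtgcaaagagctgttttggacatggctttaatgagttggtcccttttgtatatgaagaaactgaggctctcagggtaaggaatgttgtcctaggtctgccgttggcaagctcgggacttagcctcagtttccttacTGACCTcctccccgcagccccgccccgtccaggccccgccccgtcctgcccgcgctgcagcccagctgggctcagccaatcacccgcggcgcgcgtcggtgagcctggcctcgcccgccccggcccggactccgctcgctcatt
Acadm, chr3:153944594-153944893, minus strand: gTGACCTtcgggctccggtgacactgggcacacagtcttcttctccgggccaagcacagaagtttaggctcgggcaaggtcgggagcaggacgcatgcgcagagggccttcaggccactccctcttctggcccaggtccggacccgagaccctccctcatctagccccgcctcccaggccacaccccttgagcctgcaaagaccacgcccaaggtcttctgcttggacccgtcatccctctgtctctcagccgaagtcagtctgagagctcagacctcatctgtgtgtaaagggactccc
Ehhadh, chr16:21787785-21788084, minus strand: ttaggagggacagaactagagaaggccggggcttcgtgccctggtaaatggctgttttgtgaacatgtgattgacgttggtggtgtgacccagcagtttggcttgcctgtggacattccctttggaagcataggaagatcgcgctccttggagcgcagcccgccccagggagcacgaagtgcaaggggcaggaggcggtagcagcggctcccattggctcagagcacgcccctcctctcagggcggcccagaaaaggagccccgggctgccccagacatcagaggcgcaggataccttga
Pex11a, chr7:79743082-79743381, minus strand: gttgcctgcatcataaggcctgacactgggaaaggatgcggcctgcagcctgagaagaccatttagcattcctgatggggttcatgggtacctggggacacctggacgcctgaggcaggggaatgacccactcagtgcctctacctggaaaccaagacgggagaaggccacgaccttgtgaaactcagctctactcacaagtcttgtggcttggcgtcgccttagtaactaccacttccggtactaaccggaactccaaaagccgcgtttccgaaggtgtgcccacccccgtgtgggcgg
Hadha, chr5:30154931-30155230, minus strand: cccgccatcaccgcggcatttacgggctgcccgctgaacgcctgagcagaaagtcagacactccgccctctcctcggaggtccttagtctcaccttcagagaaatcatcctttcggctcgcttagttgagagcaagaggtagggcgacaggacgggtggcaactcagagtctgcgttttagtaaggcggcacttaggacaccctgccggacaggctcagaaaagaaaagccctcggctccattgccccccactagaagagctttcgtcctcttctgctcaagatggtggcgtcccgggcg
The repeat in Slc25a20 was centred 12 bases after the start, and the hexamers of Cpt1a and Acadm were centred at positions -91 and -246 relative to it. Hadha and Hadhb, which encode the α and β subunits of the mitochondrial trifunctional protein, start on opposite strands 273 bases apart and their windows share 228 bases. These matches are descriptions of letters in a short window and no statement about binding.

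Fasting raised many of these genes on CTRL diet, 16 and 23 in the 2 genotypes, and few or none on HFD. Effects of fasting are given as fasted minus fed on the log2 scale. A gene was called changed when the limma p-value, adjusted over all 30793 probes by Benjamini-Hochberg, was at most 0.05 and the fold change was over 1.5. In p110αhep+/+ mice on CTRL diet 16 of the 37 genes rose with fasting, against 2.93% of all genes, and none fell, against 2.52% of all genes. Their median log2 fold change was 0.48, beside a median near 0 over all genes (-8.8e-05). In p110αhep-/- mice on CTRL diet 23 rose (background 3.65%) and none fell (3.43%), with a median of 0.88. On HFD no gene of the 37 was called in p110αhep+/+ mice (background 2.24% higher and 2.47% lower), where the median was 0.14, and 1 was called without fasted replicate 1 or 3. With the processed signal scaled to the 75th percentile, or with median scaling, 3 were called, all higher. In p110αhep-/- mice on HFD 4 rose (background 2.76%) and none fell (3.14%), with a median of -0.0063, and the number called was 2 with the replicate block or with only these groups in the fit.

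Without the fold change threshold, 30 genes passed as higher in fasted p110αhep+/+ mice on CTRL diet (16% of all genes did so) and none as lower (16.5%), and 34 as higher in p110αhep-/- mice (16.4%), where 1 passed as lower (19.1%). On HFD 11 passed as higher in p110αhep+/+ mice (13.8%) and 1 as lower (14.7%), and 7 as higher in p110αhep-/- mice (13.9%) and 8 as lower (14.6%). At an unadjusted p under 0.05 the numbers were 31 and 35 of 37 on CTRL diet, against 41.9% and 43.7% of all genes, and on HFD 17 and 20 of 37, against 38.1% and 38.3%. All 6 fasted mice lay above all 6 fed mice for 26 genes in p110αhep+/+ mice on CTRL diet (5.82% of all genes) and for 32 in p110αhep-/- mice (7.21%). On HFD that held for 5 (5.19%) and 2 genes (3.69%). All 6 fasted mice lay below all 6 fed mice for none of the 37 on CTRL diet (5.99% and 8.41% of all genes) and for 2 (5.66%) and 1 (4.75%) on HFD. Within the first and the second washing batch alone, each with 3 mice per group, the median of the 37 genes was 0.50 and 0.53 in p110αhep+/+ mice on CTRL diet, 0.12 and 0.10 on HFD, 0.69 and 0.90 in p110αhep-/- mice on CTRL diet, and -0.10 and 0.11 on HFD. The last of these changed sign between the batches. Within the batches 10 and 17 genes were called in p110αhep+/+ mice on CTRL diet, 1 and 0 on HFD, 20 and 24 in p110αhep-/- mice on CTRL diet, and 2 and 2 on HFD, 1 of them lower in the first batch. The 3 red cell marker genes were all called lower in fasted p110αhep-/- mice on CTRL diet, with their mean log2 signal at 14.31 to 15.19 in the fed and 13.71 to 14.55 in the fasted mice, and 1 of the 3 in p110αhep+/+ mice. With fasting on CTRL diet 2 of the 5 stellate markers were called lower in p110αhep+/+ and 1 in p110αhep-/- mice, and in p110αhep-/- mice 1 of 4 bile duct and 1 of the 2 measured skeletal muscle markers were called lower and 1 of 5 endothelial markers higher. Of the 6 hepatocyte markers 1 was called higher in each genotype on CTRL diet. On HFD 1 hepatocyte marker was called higher in p110αhep+/+ mice, and 1 endothelial marker higher and 1 stellate marker lower in p110αhep-/- mice. The part of these cell types in the fasting effects was not tested.

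**Figure D1:**
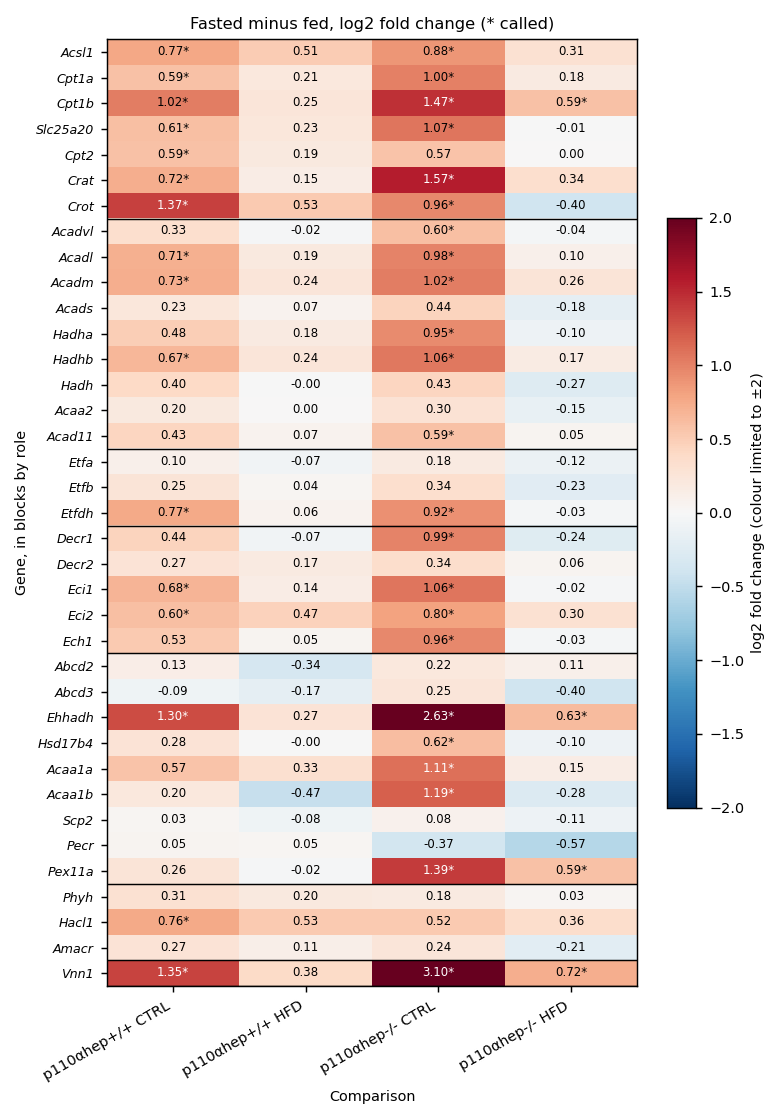
Fasted minus fed log2 fold change of the 37 genes (rows, in blocks by role) in the 4 combinations of genotype and diet (columns), with an asterisk where a gene was called. The CTRL diet columns hold 16 and 23 called genes and the HFD columns 0 and 4.

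The level of the whole set was summarised for each mouse as the median over the 37 genes of the log2 signal minus the mean of that gene over all mice. In p110αhep+/+ mice this median level ran from -0.37 to -0.14 (median -0.24) in the fed and 0.14 to 0.42 (median 0.22) in the fasted mice on CTRL diet. On HFD it was 0.03 to 0.15 (median 0.08) fed and 0.14 to 0.24 (median 0.19) fasted. In p110αhep-/- mice it was -0.64 to -0.48 (median -0.53) fed and 0.14 to 0.41 (median 0.27) fasted on CTRL diet, and -0.40 to 0.18 (median -0.02) fed and -0.12 to 0.17 (median -0.03) fasted on HFD. The fed p110αhep-/- mice on CTRL diet were the lowest group and did not overlap with any other. Fasted mice of both genotypes on CTRL diet overlapped with each other, and fed and fasted p110αhep-/- mice on HFD overlapped over most of their range. Counted gene by gene, 29 of the 37 genes had their lowest group mean in fed p110αhep-/- mice on CTRL diet, and 17 had their highest in fasted p110αhep-/- mice on CTRL diet. The lowest single value among fed p110αhep-/- mice on HFD was that of replicate 3, the array with the lowest weight. Without it the diet comparison of fed p110αhep-/- mice, described below, had 17 called genes in place of 15.

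**Figure D2:**
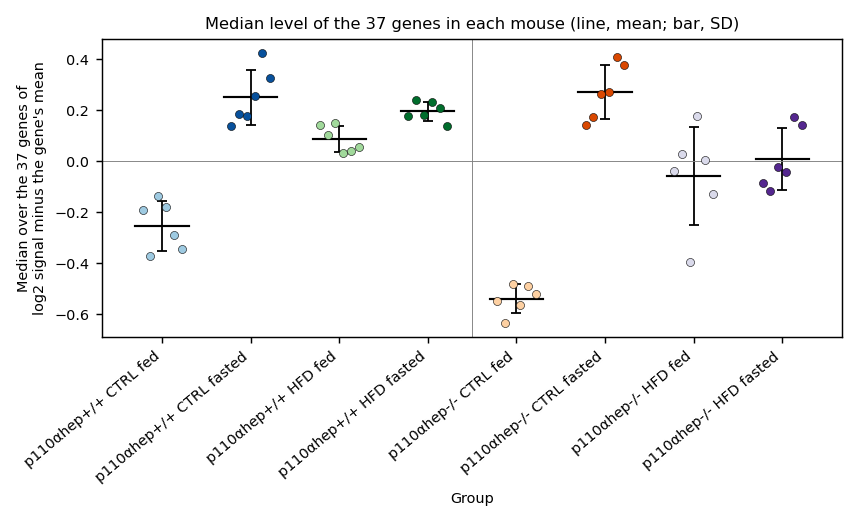
Median over the 37 genes of the log2 signal minus each gene's mean over all mice (vertical axis), for each of the 48 mice by group (horizontal axis); lines are group means and bars SD, n = 6. Fed p110αhep-/- mice on CTRL diet sit at -0.64 to -0.48, below every other mouse.

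The genes of activation and of the carnitine shuttle rose together on CTRL diet, 7 of 7 in p110αhep+/+ mice and 6 of 7 in p110αhep-/- mice, against 0 and 1 of 7 on HFD. Acsl1, the main long chain acyl-CoA synthetase of liver, had mean log2 signals of 15.79 fed and 16.53 fasted on CTRL diet and 15.95 and 16.43 on HFD in p110αhep+/+ mice, and 15.50, 16.39, 15.85 and 16.23 in p110αhep-/- mice (SD within groups 0.09 to 0.34, n = 6). Cpt1a, the liver form of carnitine palmitoyltransferase 1 and the gate of entry into mitochondria, averaged 14.67 fed and 15.27 fasted on CTRL diet and 15.01 and 15.19 on HFD in p110αhep+/+ mice, and 14.32, 15.39, 14.82 and 15.04 in p110αhep-/- mice (SD 0.06 to 0.26). Its log2 fold change with fasting was 0.59 ± 0.09 (SE, limma adjusted p = 2.16e-06) in p110αhep+/+ and 1.00 ± 0.09 (adjusted p = 1.29e-11) in p110αhep-/- mice on CTRL diet, and 0.21 and 0.18 on HFD, neither called. The call in p110αhep+/+ mice lay near the fold change threshold and was lost, at 0.50 to 0.57, without fed replicate 2, fed replicate 6 or fasted replicate 5.

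Cpt1b, the muscle form of the same enzyme, gave a dim signal at percentile 29.1 of all genes, whereas that of Cpt1a stood at percentile 96.4, each read by its own probe. Cpt1b had log2 signals of 6.12 to 6.59 (median 6.34) in fed and 7.08 to 7.54 (median 7.49) in fasted p110αhep+/+ mice on CTRL diet, and 6.63 to 6.92 (median 6.80) and 6.99 to 7.13 (median 7.04) on HFD. Among p110αhep-/- mice the signals were 6.06 to 6.55 (median 6.29) in fed and 7.25 to 8.17 (median 7.65) in fasted mice on CTRL diet, and 6.20 to 6.51 (median 6.31) and 6.53 to 7.26 (median 6.91) on HFD. Every fasted mouse lay above every fed mouse of its genotype and diet, in all 4 combinations. Its log2 fold change with fasting was 1.02 ± 0.10 and 1.47 ± 0.10 on CTRL diet in p110αhep+/+ and p110αhep-/- mice (SE, limma adjusted p = 1.66e-10 and 1.03e-14). On HFD it was 0.25 in p110αhep+/+ mice, which did not pass the test at adjusted p = 0.0567, and 0.59 in p110αhep-/- mice (adjusted p = 0.000122), close to the threshold.

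Slc25a20, the carnitine-acylcarnitine translocase whose promoter is shown above, had log2 signals of 10.65 to 11.05 (median 10.89) in fed and 11.35 to 11.61 (median 11.53) in fasted p110αhep+/+ mice on CTRL diet, and 11.03 to 11.42 (median 11.21) and 11.22 to 11.59 (median 11.45) on HFD. The p110αhep-/- mice had 10.42 to 10.56 (median 10.48) in fed and 11.45 to 11.66 (median 11.55) in fasted mice on CTRL diet, and 10.39 to 11.21 (median 11.16) and 10.94 to 11.42 (median 11.04) on HFD. On CTRL diet fed and fasted mice were apart in both genotypes, whereas on HFD fed and fasted mice overlapped in both. The fasting effect was 0.61 and 1.07 on CTRL diet and 0.23 and -0.0063 on HFD, in p110αhep+/+ and p110αhep-/- mice. Cpt2, the inner membrane transferase, rose by 0.59 in p110αhep+/+ mice on CTRL diet, and its 0.57 in p110αhep-/- mice passed the adjusted p (1.04e-08, limma) and fell short of the fold change threshold. The calls of Slc25a20 and Cpt2 in p110αhep+/+ mice also lay near the threshold and each was lost, at 0.57 to 0.58 and 0.568 to 0.571, without any 1 of 3 arrays: fed replicates 2 and 6 and fasted replicate 4 for Slc25a20, fed replicate 3 and fasted replicates 5 and 6 for Cpt2.

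Crat and Crot encode the acetyl and octanoyl carnitine transferases. Crat had log2 signals of 11.35 to 12.09 (median 11.77) in fed and 12.26 to 12.74 (median 12.51) in fasted p110αhep+/+ mice on CTRL diet, and 12.10 to 12.63 (median 12.37) and 12.30 to 12.64 (median 12.56) on HFD. For p110αhep-/- mice the range was 10.97 to 11.57 (median 11.12) in fed and 12.47 to 13.03 (median 12.69) in fasted mice on CTRL diet, and 11.49 to 12.16 (median 12.01) and 11.70 to 12.92 (median 12.22) on HFD. Its rise with fasting on CTRL diet was 1.57 ± 0.14 in p110αhep-/- mice and 0.72 ± 0.14 in p110αhep+/+ mice (SE, limma adjusted p = 6.4e-12 and 7.71e-05), from a lower fed level in p110αhep-/- mice. Crot, a peroxisomal enzyme that prepares shortened chains for export, had log2 signals of 12.71 to 13.12 (median 13.08) in fed and 13.95 to 14.69 (median 14.35) in fasted p110αhep+/+ mice on CTRL diet, and 13.63 to 13.97 (median 13.69) and 14.03 to 14.74 (median 14.17) on HFD. Signals in p110αhep-/- mice were 12.61 to 13.74 (median 13.25) in fed and 13.90 to 14.57 (median 14.21) in fasted mice on CTRL diet, and 13.29 to 14.43 (median 14.05) and 13.37 to 14.21 (median 13.48) on HFD. The fasting effect on Crot was 1.37 in p110αhep+/+ and 0.96 in p110αhep-/- mice on CTRL diet, both called, and 0.53 and -0.40 on HFD, neither called, so that on HFD the values of the genotypes had opposite signs.

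**Figure D3:**
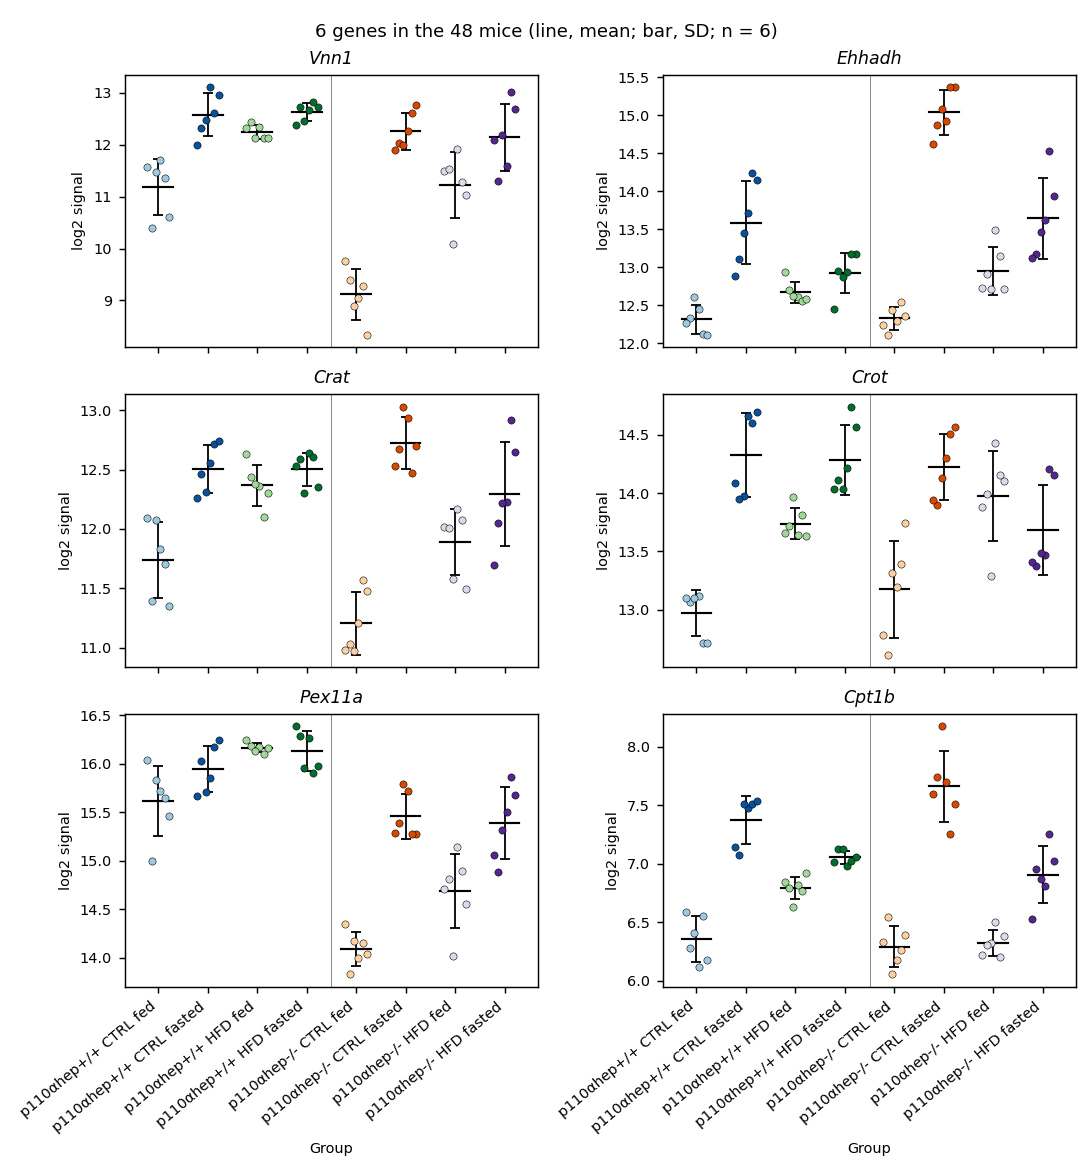
Log2 signal (vertical axes) of 6 genes in each of the 48 mice by genotype, diet and feeding state (horizontal axis); lines are group means and bars SD, n = 6. Fed p110αhep-/- mice on CTRL diet sit lowest for Vnn1, Crat and Pex11a, and fasted p110αhep-/- mice on CTRL diet sit highest for Ehhadh.

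In the mitochondrial spiral 3 of 9 genes rose with fasting in p110αhep+/+ mice and 6 of 9 in p110αhep-/- mice on CTRL diet, and none on HFD. Of the 4 chain length specific acyl-CoA dehydrogenases, 2 were called in both genotypes on CTRL diet, 1 in p110αhep-/- mice and 1 in neither. Acadm, for medium chains, averaged 15.13 fed and 15.87 fasted on CTRL diet and 15.67 and 15.91 on HFD in p110αhep+/+ mice, and 14.75, 15.84, 15.43 and 15.74 in p110αhep-/- mice (SD 0.06 to 0.24). Acadl, for long chains, averaged 12.94 fed and 13.63 fasted on CTRL diet and 13.22 and 13.40 on HFD in p110αhep+/+ mice, and 12.84, 13.88, 13.27 and 13.40 in p110αhep-/- mice (SD 0.07 to 0.22). Both were called in both genotypes on CTRL diet, with fasting effects of 0.73 and 1.02 for Acadm and 0.71 and 0.98 for Acadl in p110αhep+/+ and p110αhep-/- mice. Acadvl, for very long chains, averaged 15.69 fed and 16.02 fasted on CTRL diet and 15.93 and 15.91 on HFD in p110αhep+/+ mice, and 15.47, 16.09, 15.90 and 15.89 in p110αhep-/- mice (SD 0.03 to 0.19). Its 0.33 in p110αhep+/+ mice was under the fold change threshold and its 0.60 in p110αhep-/- mice just above it, a call lost at 0.578 to 0.582 without fasted replicate 4, 5 or 6. Acads, for short chains, averaged 13.15 fed and 13.40 fasted on CTRL diet and 13.32 and 13.37 on HFD in p110αhep+/+ mice, and 12.83, 13.31, 13.28 and 13.14 in p110αhep-/- mice (SD 0.07 to 0.18), and its largest fasting effect, 0.44 in p110αhep-/- mice on CTRL diet, was not called.

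The head-to-head genes of the trifunctional protein, Hadha and Hadhb, both rose with fasting in p110αhep-/- mice on CTRL diet. Hadha averaged 10.53 fed and 11.01 fasted on CTRL diet and 10.65 and 10.82 on HFD in p110αhep+/+ mice, and 10.25, 11.26, 10.69 and 10.62 in p110αhep-/- mice (SD 0.06 to 0.30). Hadhb averaged 13.95 fed and 14.62 fasted on CTRL diet and 14.26 and 14.49 on HFD in p110αhep+/+ mice, and 13.74, 14.86, 14.35 and 14.56 in p110αhep-/- mice (SD 0.04 to 0.24). The fasting effect in p110αhep+/+ on CTRL diet, p110αhep+/+ on HFD, p110αhep-/- on CTRL diet and p110αhep-/- on HFD was 0.48, 0.18, 0.95 and -0.10 for Hadha and 0.67, 0.24, 1.06 and 0.17 for Hadhb. Of these Hadhb was called in both genotypes on CTRL diet and Hadha in p110αhep-/- mice only by this rule, its p110αhep+/+ value having passed the adjusted p (limma, 8.87e-06) below the fold change threshold. Hadh, the dehydrogenase for medium and short chains, averaged 13.75 fed and 14.17 fasted on CTRL diet and 14.42 and 14.38 on HFD in p110αhep+/+ mice, and 13.56, 14.03, 14.16 and 13.97 in p110αhep-/- mice (SD 0.09 to 0.27) and was called in no fasting comparison. Acad11 was called at 0.59 in p110αhep-/- mice on CTRL diet, close to the threshold, and was lost at 0.57 to 0.58 without fed replicate 3 or 6 or fasted replicate 5 or 6. Acaa2, the mitochondrial thiolase, was called in none, and its fasting effects lay between -0.15 and 0.30.

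Of the 3 genes of electron transfer 1 rose with fasting, in both genotypes on CTRL diet. It was Etfdh, the oxidoreductase of the flavoprotein, which passes the electrons on to ubiquinone. It averaged 13.62 fed and 14.40 fasted on CTRL diet and 14.11 and 14.16 on HFD in p110αhep+/+ mice, and 13.31, 14.26, 13.82 and 13.85 in p110αhep-/- mice (SD 0.05 to 0.30). On CTRL diet every fasted mouse lay above every fed mouse of its genotype. The fasting effects of 0.77 ± 0.08 and 0.92 ± 0.08 on CTRL diet were called in p110αhep+/+ and p110αhep-/- mice (SE, limma adjusted p = 3.9e-10 and 2.54e-12), and those on HFD were 0.06 and -0.03. The fasting effects of Etfa and Etfb, which encode the subunits of the flavoprotein, ranged from -0.23 to 0.34 over the 4 combinations, and neither gene was called in any.

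Of the auxiliary enzymes that handle unsaturated chains, 2 of 5 rose with fasting in p110αhep+/+ and 4 of 5 in p110αhep-/- mice on CTRL diet, and none on HFD. Decr1, the mitochondrial dienoyl-CoA reductase, averaged 15.70 fed and 16.17 fasted on CTRL diet and 16.15 and 16.06 on HFD in p110αhep+/+ mice, and 15.13, 16.19, 15.81 and 15.64 in p110αhep-/- mice (SD 0.06 to 0.30). Ech1, a dienoyl-CoA isomerase, averaged 14.77 fed and 15.32 fasted on CTRL diet and 15.31 and 15.36 on HFD in p110αhep+/+ mice, and 14.40, 15.44, 15.11 and 15.16 in p110αhep-/- mice (SD 0.02 to 0.35). Both were called in p110αhep-/- mice on CTRL diet, at 0.99 and 0.96, and stayed under the fold change threshold in p110αhep+/+ mice at 0.44 and 0.53. Eci1, the mitochondrial enoyl-CoA isomerase, averaged 14.89 fed and 15.59 fasted on CTRL diet and 15.39 and 15.51 on HFD in p110αhep+/+ mice, and 14.52, 15.65, 15.16 and 15.25 in p110αhep-/- mice (SD 0.07 to 0.39). Eci2, its mainly peroxisomal relative, averaged 15.13 fed and 15.73 fasted on CTRL diet and 15.31 and 15.77 on HFD in p110αhep+/+ mice, and 15.05, 15.88, 15.41 and 15.75 in p110αhep-/- mice (SD 0.05 to 0.20). Eci1 and Eci2 were called on CTRL diet in both genotypes. On HFD the values were 0.14 and -0.02 for Eci1 and 0.47 and 0.30 for Eci2 in p110αhep+/+ and p110αhep-/- mice, and those of Eci2 passed the adjusted p (6.2e-07 and 0.00291, limma) without reaching the fold change threshold. The p110αhep+/+ call of Eci2 on CTRL diet was lost at 0.55 to 0.58 without fed replicate 5 or 6 or fasted replicate 6. Decr2, the peroxisomal reductase, was called in none of the 4 combinations, with effects of 0.06 to 0.34.

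In the peroxisomal block of 9 genes 1 of 9, Ehhadh, rose with fasting on CTRL diet in p110αhep+/+ mice and 5 of 9 in p110αhep-/- mice, and on HFD 0 and 2. Crot, Eci2 and Decr2, also wholly or mainly peroxisomal, were counted in the blocks above. Crot and Eci2 were called on CTRL diet in both genotypes. Ehhadh, the bifunctional enzyme of the peroxisomal spiral, had log2 signals of 12.11 to 12.61 (median 12.30) in fed and 12.88 to 14.24 (median 13.58) in fasted p110αhep+/+ mice on CTRL diet, and 12.56 to 12.94 (median 12.61) and 12.46 to 13.18 (median 12.94) on HFD. The corresponding ranges in p110αhep-/- mice were 12.11 to 12.55 (median 12.33) in fed and 14.63 to 15.37 (median 15.00) in fasted mice on CTRL diet, and 12.71 to 13.49 (median 12.82) and 13.12 to 14.54 (median 13.55) on HFD. The 6 fasted p110αhep-/- mice on CTRL diet lay above all the other 42 mice. The fasting effect was 1.30 ± 0.17 in p110αhep+/+ and 2.63 ± 0.18 in p110αhep-/- mice on CTRL diet (SE, limma adjusted p = 1.04e-07 and 2.24e-15), and 0.27 (adjusted p = 0.246) and 0.63 (adjusted p = 0.0123) on HFD.

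Pex11a, which promotes the division of peroxisomes, had log2 signals of 15.00 to 16.04 (median 15.68) in fed and 15.67 to 16.25 (median 15.94) in fasted p110αhep+/+ mice on CTRL diet, and 16.10 to 16.25 (median 16.17) and 15.91 to 16.39 (median 16.12) on HFD. Its range in p110αhep-/- mice was 13.83 to 14.35 (median 14.10) in fed and 15.27 to 15.79 (median 15.34) in fasted mice on CTRL diet, and 14.02 to 15.14 (median 14.76) and 14.89 to 15.87 (median 15.41) on HFD. The fed p110αhep-/- mice on CTRL diet had the lowest mean of the 8 groups, and the fasted p110αhep-/- mice on CTRL diet overlapped with the fed p110αhep+/+ mice. The fasting effect was 1.39 ± 0.14 (adjusted p = 5.1e-11, limma) in p110αhep-/- and 0.26 ± 0.13 (adjusted p = 0.135) in p110αhep+/+ mice on CTRL diet.

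The neighbouring thiolase genes Acaa1a and Acaa1b are close paralogs, so part of the signal of each may come from the other. Acaa1b had log2 signals of 15.52 to 16.32 (median 15.87) in fed and 15.95 to 16.44 (median 16.19) in fasted p110αhep+/+ mice on CTRL diet, and 16.49 to 16.82 (median 16.59) and 15.86 to 16.39 (median 16.10) on HFD. p110αhep-/- mice showed 14.89 to 15.15 (median 15.08) in fed and 15.93 to 16.60 (median 16.30) in fasted mice on CTRL diet, and 15.29 to 16.20 (median 15.90) and 15.13 to 15.97 (median 15.59) on HFD. Its fasting effect was 1.19 ± 0.12 in p110αhep-/- mice on CTRL diet (SE, limma adjusted p = 2.42e-10) and 0.20 ± 0.12 in p110αhep+/+ mice (adjusted p = 0.212), and on HFD it was -0.47 in p110αhep+/+ mice (adjusted p = 0.00221), below the fold change threshold, with all 6 fasted mice under the 6 fed mice. Acaa1a averaged 16.02 fed and 16.58 fasted on CTRL diet and 16.32 and 16.61 on HFD in p110αhep+/+ mice, and 15.51, 16.65, 16.14 and 16.37 in p110αhep-/- mice (SD 0.08 to 0.30), with fasting effects of 0.57, 0.33, 1.11 and 0.15 in p110αhep+/+ on CTRL diet, p110αhep+/+ on HFD, p110αhep-/- on CTRL diet and p110αhep-/- on HFD. A second, dimmer probe named Acaa1a gave 0.22, -0.37, 1.13 and -0.19, beside 0.20, -0.47, 1.19 and -0.28 for Acaa1b, and 3 of the 4 values were nearer to those of Acaa1b than to those of the brighter Acaa1a probe. The exception was p110αhep-/- mice on CTRL diet. No ungapped alignment of its 60 bases with the Acaa1b probe matched at more than 20 bases, and whether it reads the Acaa1b transcript was not tested.

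Of the other genes of the peroxisomal block 1 was called with fasting. Hsd17b4, the second bifunctional enzyme, averaged 15.09 fed and 15.40 fasted on CTRL diet and 15.57 and 15.57 on HFD in p110αhep+/+ mice, and 14.61, 15.27, 15.15 and 15.11 in p110αhep-/- mice (SD 0.05 to 0.24) and was called at 0.62 in p110αhep-/- mice on CTRL diet. Abcd3, an importer of acyl-CoA, averaged 15.71 fed and 15.67 fasted on CTRL diet and 16.00 and 15.80 on HFD in p110αhep+/+ mice, and 15.23, 15.52, 15.53 and 15.19 in p110αhep-/- mice (SD 0.06 to 0.24) and was called in no fasting comparison, its effect being 0.25 on CTRL diet and -0.40 on HFD in p110αhep-/- mice. Pecr, a peroxisomal enoyl-CoA reductase, was the 1 gene of the 37 that passed the adjusted p as lower with fasting in p110αhep-/- mice on CTRL diet. It averaged 15.30 fed and 15.36 fasted on CTRL diet and 15.39 and 15.41 on HFD in p110αhep+/+ mice, and 15.19, 14.79, 15.50 and 14.97 in p110αhep-/- mice (SD 0.07 to 0.27). Its fasting effects in p110αhep-/- mice, -0.37 on CTRL diet and -0.57 on HFD, passed the adjusted p (limma, 0.00038 and 6.46e-06) without reaching the fold change threshold, and those in p110αhep+/+ mice were 0.05 and 0.05. Scp2, a thiolase and lipid carrier, had fasting effects of -0.11 to 0.08, and Abcd2, a dim importer of very long chains, of -0.34 to 0.22, with neither called.

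Of the enzymes for branched chains and alpha oxidation, Hacl1, the hydroxyacyl-CoA lyase, averaged 14.32 fed and 15.03 fasted on CTRL diet and 14.29 and 14.79 on HFD in p110αhep+/+ mice, and 14.42, 15.02, 14.59 and 14.95 in p110αhep-/- mice (SD 0.13 to 0.48). It was called at 0.76 ± 0.15 in p110αhep+/+ mice on CTRL diet (SE, limma adjusted p = 0.000126), and its effects in p110αhep+/+ on HFD, p110αhep-/- on CTRL diet and p110αhep-/- on HFD were 0.53, 0.52 and 0.36. The fasting effects of Phyh, the phytanoyl-CoA hydroxylase, and Amacr, a racemase, lay between -0.21 and 0.31 and were not called. Vnn1, which frees pantothenate and cysteamine from pantetheine and is a known PPARα target, had the widest range of all 37 genes. Its log2 signals were 10.40 to 11.70 (median 11.42) in fed and 11.99 to 13.12 (median 12.55) in fasted p110αhep+/+ mice on CTRL diet, and 12.14 to 12.45 (median 12.23) and 12.39 to 12.83 (median 12.70) on HFD. Among p110αhep-/- mice the signals were 8.34 to 9.77 (median 9.16) in fed and 11.91 to 12.78 (median 12.15) in fasted mice on CTRL diet, and 10.09 to 11.92 (median 11.38) and 11.30 to 13.01 (median 12.14) on HFD. Fed p110αhep-/- mice on CTRL diet were below all the other 42 mice, and the fasted groups overlapped with one another. The fasting effect was 3.10 ± 0.22 in p110αhep-/- and 1.35 ± 0.22 in p110αhep+/+ mice on CTRL diet (limma adjusted p = 1.31e-14 and 4.32e-06).

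The calls on HFD in p110αhep-/- mice were 4: Vnn1 at 0.72, Ehhadh at 0.63, Cpt1b at 0.59 and Pex11a at 0.59. Those other than Vnn1 lay near the fold change threshold, and all 4 rested on single mice. Without fasted replicate 5 none of the 4 was called, with values of 0.53, 0.44, 0.52 and 0.47 in the same order. Without fasted replicate 6 none was called either, with 0.61, 0.53, 0.55 and 0.50. The 0.61 of Vnn1 was still over the threshold, 0.585 on the log2 scale, and its call was lost on the adjusted p. Leaving out fed replicate 1 left 1 call and fed replicate 6 left 2.

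Whether the response to fasting depended on the diet was tested as the fasting effect on HFD minus that on CTRL diet. The difference was below 0 for all 37 genes in p110αhep+/+ and for all 37 in p110αhep-/- mice, with medians of -0.36 and -0.72 against -0.00026 and 0.0074 over all genes. In p110αhep+/+ mice 5 genes were called (background 0.596%): Ehhadh at -1.03 ± 0.24, Crot at -0.85 ± 0.22, Cpt1b at -0.77 ± 0.14, Etfdh at -0.70 ± 0.11 and Acaa1b at -0.67 ± 0.17 (SE). Both Crot and Acaa1b were lost, leaving 3 calls, without fasted replicate 5 or fed replicate 6 on CTRL diet or fasted replicate 3 on HFD, at -0.76, -0.79 and -0.77 for Crot and -0.64, -0.62 and -0.61 for Acaa1b. Crot alone was lost without fed replicate 5 or fasted replicate 4 or 6 on CTRL diet or fasted replicate 2 or 4 on HFD, with values of -0.83 to -0.76 over all 8. All these values of Crot and Acaa1b were beyond the fold change threshold, so the calls were lost on the adjusted p. Vnn1, at -0.98 with a 95% interval of -1.59 to -0.37, did not pass (limma adjusted p = 0.0769). In p110αhep-/- mice 23 of 37 were called (background 1.78%), led by Vnn1 at -2.38 ± 0.33, Ehhadh at -1.999 ± 0.26, Acaa1b at -1.47 ± 0.18, Crot at -1.36 ± 0.24 and Crat at -1.23 ± 0.21. The smallest of the 23 was -0.62, for Acads. The calls of Acads and Abcd3 there rested on 1 mouse each, that of Acads on fasted replicate 6 on CTRL diet (-0.58 without it) and that of Abcd3 on fasted replicate 1 on HFD (-0.57).

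**Figure D4:**
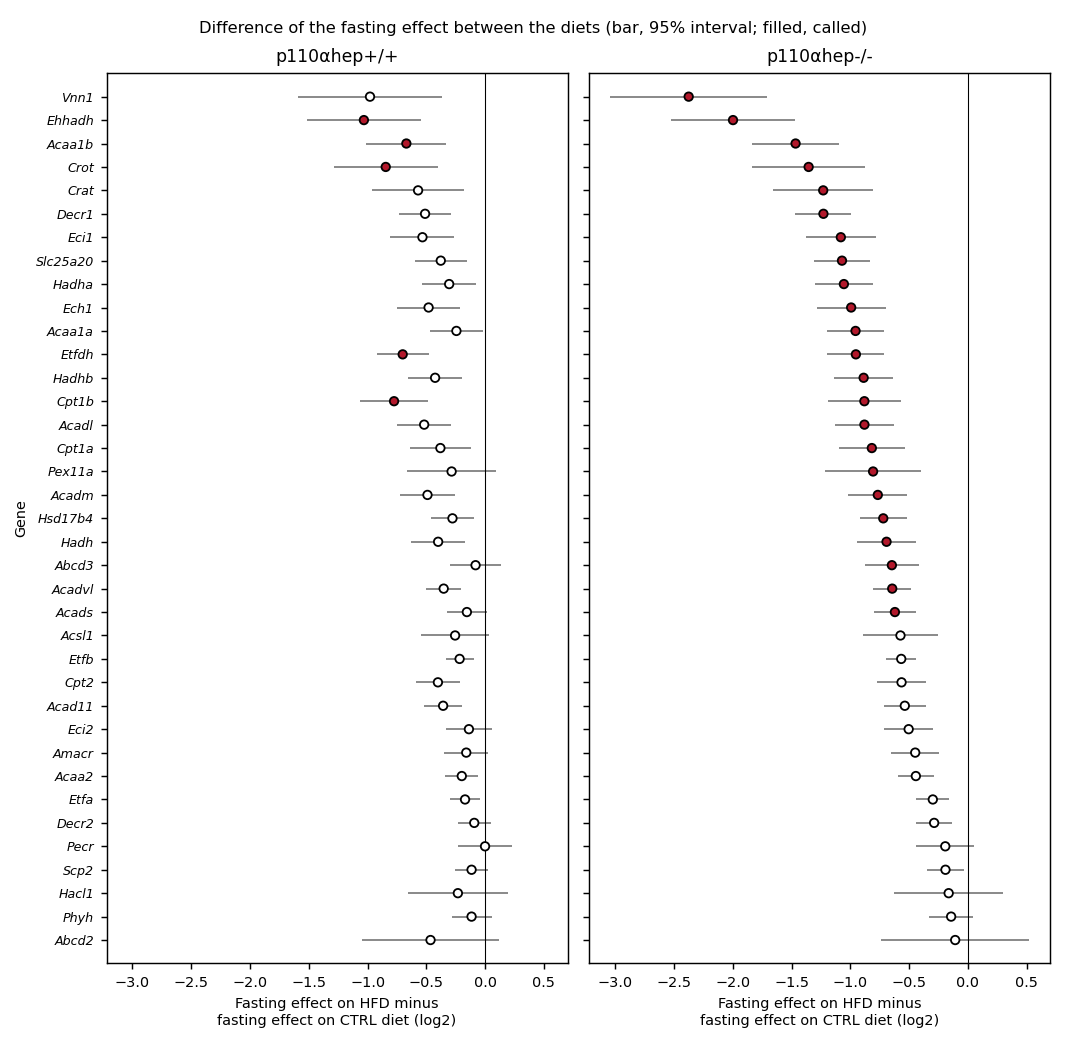
Fasting effect on HFD minus fasting effect on CTRL diet (horizontal axis, log2) for the 37 genes (vertical axis, ordered by the value in p110αhep-/- mice) in each genotype; bars are 95% intervals and filled points called genes. All points lie below 0, with 5 filled in p110αhep+/+ and 23 in p110αhep-/- mice.

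Within the washing batches the difference was below 0 for 37 and 36 of 37 genes in p110αhep+/+ mice, with medians of -0.32 and -0.43, and for 36 and 37 in p110αhep-/- mice, with medians of -0.73 and -0.77. The calls within the batches were 0 and 1 in p110αhep+/+ mice, against 5 over both, and 21 and 14 in p110αhep-/- mice, against 23. The number in p110αhep+/+ mice was 3 with equal array weights or with the median over a gene's probes and 2 with no filter on dim probes. The diets were then compared within each feeding state, as HFD minus CTRL diet. In fed mice 5 of 37 were called higher in p110αhep+/+ mice (background 2.65%) and 15 in p110αhep-/- mice (background 1.29%), none lower, with medians of 0.28 and 0.49. The 5 were Vnn1 at 1.01, Abcd2 at 0.88, Crot at 0.76, Hadh at 0.62 and Acaa1b at 0.60, and all 5 were also called in fed p110αhep-/- mice, Vnn1 at 2.28. Among fasted p110αhep+/+ mice 1 was called, Ehhadh at -0.70 (background for lower 0.976%), and not without fasted replicate 5 or 6 on CTRL diet. In p110αhep-/- mice 4 were called lower (background 0.971%), Ehhadh at -1.38, Cpt1b at -0.82, Acaa1b at -0.68 and Hadha at -0.59, and 1 higher (background 0.918%), Abcd2 at 0.69. The median there was -0.22, and the 5 calls fell to 3 without fasted replicate 4 of either diet or with normexp background correction, and to 2 without fasted replicate 2 on HFD. Within the batches the calls were 5 and 2 in fed p110αhep+/+ mice, 16 and 4 in fed p110αhep-/- mice, 0 and 1 in fasted p110αhep+/+ mice and 1 and 3 in fasted p110αhep-/- mice. The number in fed p110αhep+/+ mice was 3 with the processed signal scaled to the 75th percentile or with median scaling. Marker genes of cell types moved with the diet too. In fed p110αhep+/+ mice 1 of the 6 hepatocyte markers was called lower on HFD and 1 of the 5 stellate markers higher, in fasted p110αhep+/+ mice 1 stellate marker was higher, in fed p110αhep-/- mice 1 of the 2 measured skeletal muscle markers was lower, and in fasted p110αhep-/- mice 2 of the 3 red cell markers were higher. Of all 20486 genes, 227 were called lower and 543 higher in fed p110αhep+/+ mice, and 375 higher in fasted ones. Among p110αhep-/- mice 211 were called lower when fed and 188 higher when fasted. The part of these cell types in the diet effects was not tested. These comparisons share their groups with the fasting comparisons above.

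Whether the response to fasting depended on hepatocyte p110α was tested as the fasting effect in p110αhep-/- minus that in p110αhep+/+ mice. On CTRL diet the difference was above 0 for 31 of 37 genes, with a median of 0.27 (within the batches 0.22 and 0.20), and 5 were called (background 0.625%). They were Vnn1 at 1.74 ± 0.31, Ehhadh at 1.32 ± 0.25, Pex11a at 1.13 ± 0.19, Acaa1b at 0.99 ± 0.17 and Crat at 0.85 ± 0.20 (SE), with limma adjusted p of 0.000806, 0.00126, 0.000437, 0.000685 and 0.0103. The number of calls was 5 or 6 without any 1 of the 24 mice, but 0 in the first and 2 in the second washing batch alone. Cpt1a, at 0.41 with an interval of 0.15 to 0.67, did not pass (adjusted p = 0.0657). On HFD the median was -0.12 (within the batches -0.17 and -0.0058), and 2 genes were called (background 0.644%), Crot at -0.93 ± 0.23 and Pecr at -0.61 ± 0.12. Pecr was lost, at -0.58 to -0.56, without any 1 of 5 mice: fed replicate 1 or 6 of the p110αhep+/+ and fed replicate 4 or 5 or fasted replicate 5 of the p110αhep-/- mice. Neither gene was called with equal array weights or within either batch, and 1 gene was called with the median over a gene's probes. The 3-way difference, that between these 2 differences, was called for 4 genes (background 0.19%), Hadha at -0.75, Decr1 at -0.72, Acaa1a at -0.71 and Slc25a20 at -0.69. The number fell to 0 without fed replicate 1 or 3 of the p110αhep+/+ mice on CTRL diet, fasted replicate 2 or 4 of the p110αhep+/+ mice on HFD, or fed replicate 2 or fasted replicate 3 of the p110αhep-/- mice on HFD. It was 1 without fed replicate 3 or 5 of the p110αhep-/- mice on CTRL diet or fasted replicate 2 of those on HFD. It was 2 without fed replicate 4 or fasted replicate 3 of the p110αhep+/+ mice on HFD, fed replicate 6 of the p110αhep-/- mice on CTRL diet, or fed replicate 1 or 5 of those on HFD. The values of the lost calls, -0.76 to -0.62, stayed beyond the fold change threshold, so the calls were lost on the adjusted p. No gene was called with equal array weights, with no filter on dim probes, with no washing batch correction or within either batch, 1 was with median scaling and 2 were with the replicate block.

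The larger fasting rise in p110αhep-/- mice on CTRL diet went with lower levels in the fed state for 4 of the 5 genes and with a higher level in the fasted state for the fifth. In fed mice on CTRL diet 4 of the 37 genes were called lower in p110αhep-/- than in p110αhep+/+ mice (background 2.19%), Vnn1 at -2.16 ± 0.22, Pex11a at -1.57 ± 0.14, Acaa1b at -0.96 ± 0.13 and Crat at -0.60 ± 0.14, and the median was -0.24. All 6 p110αhep-/- mice lay below all 6 p110αhep+/+ mice for 13 of the 37 genes (3.32% of all genes), and above them for none (2.89%). In fasted mice on CTRL diet only Ehhadh was called by this rule, higher in p110αhep-/- mice at 1.35 ± 0.17 (background 1.33%), and the median was -0.01. Without fasted p110αhep-/- replicate 3 there were 2 calls. With no fold change threshold 3 of the 37 genes passed as higher and 3 as lower in fasted mice on CTRL diet. Of all 20486 genes 2559 and 2520 did so. On HFD 3 genes were called lower in fed p110αhep-/- mice (background 4.04%), Pex11a at -1.40, Vnn1 at -0.90 and Acaa1b at -0.78. With no fold change threshold 3 passed as higher and 11 as lower in these fed mice, as did 3404 and 3346 of all 20486 genes. In fasted mice on HFD 4 were called lower (background 4.22%), Pex11a at -0.80, Abcd3 at -0.64, Crot at -0.59 and Acaa1b at -0.59, and Ehhadh higher at 0.68 (background 2.31%). The total of 5 there fell to 3 without p110αhep-/- replicate 2, 3 or 4 and to 2 without p110αhep-/- replicate 1, all fasted on HFD. The number of lower calls was 1 with the processed signal scaled to the 75th percentile, 2 with median scaling, with no washing batch correction or with the slide as a block, and 2 and 3 within the batches, with Ehhadh not called in the second batch. Markers of liver cell types also differed between the genotypes. The 4 bile duct markers had a lower mean in p110αhep-/- mice, 5.67 to 6.04 against 6.04 to 6.52 in p110αhep+/+ mice when fasted on CTRL diet. All 4 were dim. Epcam and Krt7, at percentiles 0.91 and 7.95 of all genes, stood out from background in only 18 and 28 of the 48 mice. Krt19 and Sox9, at percentiles 21.9 and 36.4, did so in 45 and 48. This mean therefore rests in part on signals near background. Of the 4, 2 passed the adjusted p as lower and none was called in fed mice on CTRL diet, and 3 passed and 1 was called in each of the other 3 comparisons, with medians of -0.36 and -0.34 in fed and fasted mice on CTRL diet and -0.49 and -0.38 on HFD. Of all 20486 genes, 2167 and 2520 passed as lower in fed and fasted mice on CTRL diet, and 3346 and 3623 on HFD. Called lower were 448 and 390 on CTRL diet and 827 and 865 on HFD. Called higher were 314 and 273 on CTRL diet and 451 and 474 on HFD. Of the 6 hepatocyte markers 2 were called higher in fed p110αhep-/- mice on CTRL diet, none when fasted on CTRL diet, and 1 in each feeding state on HFD. Of the 5 endothelial markers 4 passed the adjusted p as higher in fasted p110αhep-/- mice on HFD, 1 of them called, with a median of 0.41, where 3919 of all 20486 genes passed as higher. In fed p110αhep-/- mice 1 was called lower on each diet, while the medians of the 5 were above 0, at 0.17 on CTRL diet and 0.12 on HFD. Of the 5 stellate markers 1 was called lower in each of the 4 comparisons, but not the same gene in all. The medians of the 5 were 0.21 and 0.07 in fed and fasted mice on CTRL diet and -0.11 and -0.09 on HFD. Of the 3 red cell markers 1 was called lower in fasted mice on each diet, with medians of -0.07 on CTRL diet and 0.18 on HFD. The part of these cell types in the genotype effects was not tested.

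**Figure D5:**
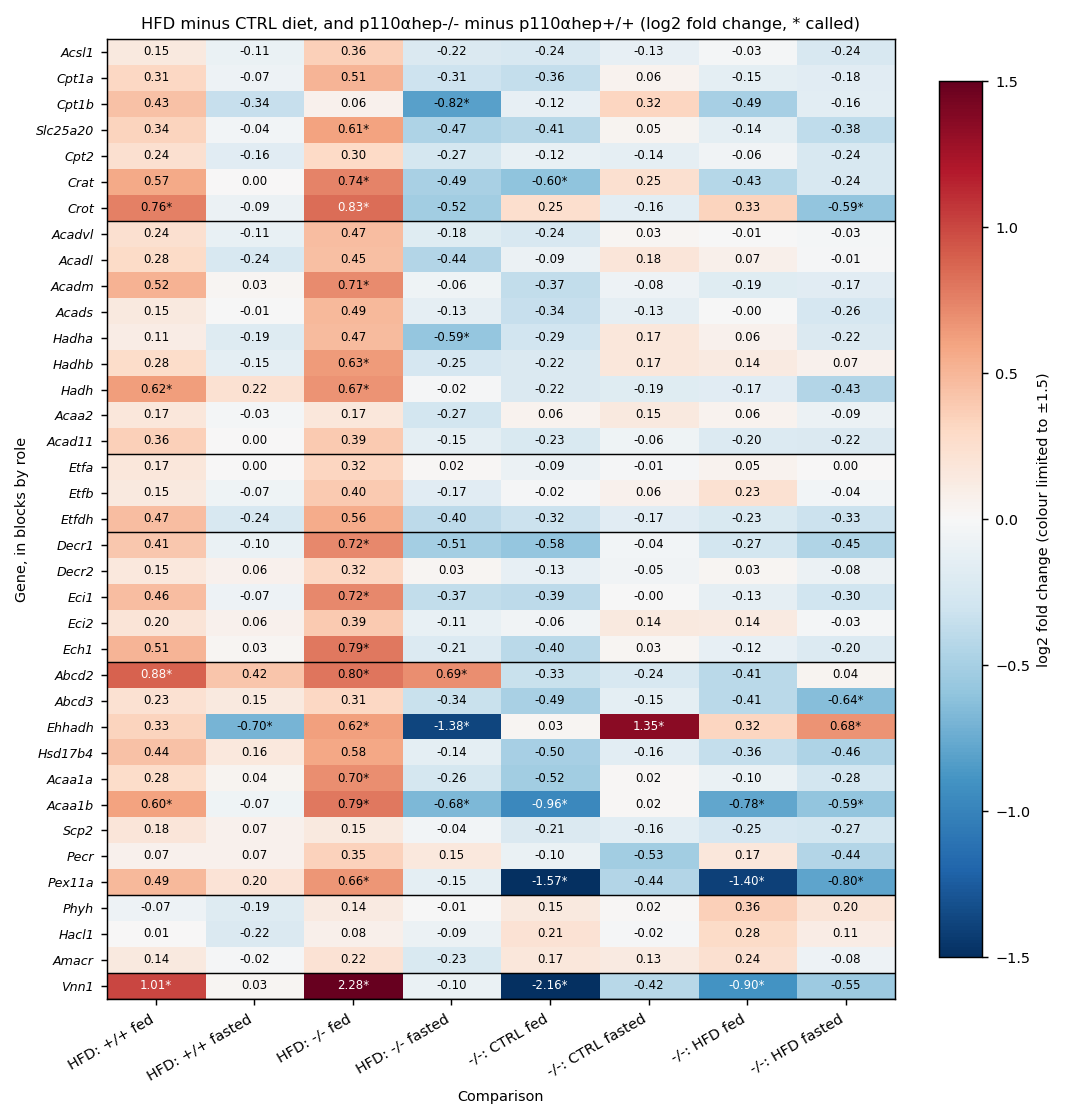
Log2 fold change of the 37 genes (rows, in blocks by role) between diets (4 left columns, HFD minus CTRL diet) and between genotypes (4 right columns, p110αhep-/- minus p110αhep+/+), with an asterisk where a gene was called. The fed columns of the diet comparison hold 5 and 15 called genes, all higher on HFD.

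Genes with more than 1 measured probe were compared across their probes. For fasting on CTRL diet all probes of Acad11, Acsl1, Cpt2, Crat, Crot, Eci2, Etfa, Etfb, Etfdh, Hacl1, Hadhb and Phyh had the same sign as the main probe in both genotypes, with sizes that differed. For Hadhb the 3 probes gave 0.67, 1.00 and 0.73 in p110αhep+/+ mice, and for Crat the 2 probes gave 1.57 and 0.85 in p110αhep-/- mice. The dimmer Pecr probe gave -0.45 and -0.31 in p110αhep-/- mice on CTRL diet and HFD, beside -0.37 and -0.57 for the main one.

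Other genes of the pathway, from a list of 31 further enzymes and carriers of which 30 were measured, moved in both directions with fasting. On CTRL diet 5 were called higher and 4 lower in p110αhep+/+ mice (background 2.93% and 2.52%), and 8 and 2 in p110αhep-/- mice (3.65% and 3.43%), with medians of 0.18 and 0.21. On HFD the counts were 3 higher and 2 lower in p110αhep+/+ mice (2.24% and 2.47%) and 1 and 2 in p110αhep-/- mice (2.76% and 3.14%), with medians of 0.10 and 0.05. The 1 higher call of 30 is near the background share. Slc22a5, the plasma membrane carrier of carnitine, had fasting effects of 1.35 and 2.07 on CTRL diet and 0.59 and 0.51 on HFD in p110αhep+/+ and p110αhep-/- mice. Its diet by fasting difference was called in both genotypes, at -0.77 and -1.57. Eci3, an isomerase of the same family as Eci2, gave 0.72 and 1.01 on CTRL diet and 0.64 and 0.33 on HFD. Acsl3, a synthetase linked to lipid droplets, was called lower in all 4 combinations, at -1.02, -1.31, -0.97 and -0.95 in the order p110αhep+/+ on CTRL diet and HFD, then p110αhep-/- on CTRL diet and HFD. Nudt7, a peroxisomal CoA hydrolase, was called lower in 3 of the 4, at -0.78, -1.41 and -1.11, and gave 0.20 in p110αhep+/+ mice on HFD.

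Of 15 peroxins, the proteins that build peroxisomes, 1 was called over the 4 fasting comparisons, Pex26 at 0.60 in p110αhep+/+ mice on HFD. Backgrounds were 2.24% to 3.65% for higher and 2.47% to 3.43% for lower. So few calls in 15 genes do not set the peroxins apart from all genes by this rule. The adjusted p alone gave another picture in p110αhep-/- mice on CTRL diet. There 9 of the 15 met it as higher when fasted and 1 as lower, against 16.4% and 19.1% of all genes. In p110αhep+/+ mice 3 met it as higher and 1 as lower on CTRL diet, and 2 and 1 on HFD. In p110αhep-/- mice on HFD 3 met it as higher and 2 as lower. The median of the peroxins in p110αhep-/- mice on CTRL diet was 0.25, against 1.39 for Pex11a. Of 13 transcriptional regulators 3 were called higher and 1 lower with fasting in p110αhep+/+ mice on CTRL diet, 1 and 0 on HFD, and 3 and 0 in p110αhep-/- mice on each diet. Ppara, which encodes PPARα, was called higher with fasting on CTRL diet in both genotypes, at 0.66 and 0.78, and on HFD gave 0.31 and 0.39, neither called. Ppargc1a, its coactivator PGC-1α, followed with 0.93 and 0.83 on CTRL diet and 0.43 and 0.11 on HFD. Foxo1, a factor that insulin keeps out of the nucleus, was called higher in all 4 combinations, at 0.84, 0.71, 0.67 and 0.99 in the order used for Acsl3.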

How the data were processed

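Liver RNA of 48 mice, 6 in each of 8 groups, was hybridised to Agilent one-colour arrays, 1 per mouse, with 1 array of each group on each of 6 slides washed in 2 batches. The authors deposited the intensity of each spot as written by Feature Extraction 10.10.1.1, unnormalised (per the file headers), and a table of log2 values that the authors had filtered, corrected for washing bath and quantile normalised (used only as an alternative). Here, following the authors' methods, the median signal intensity was filtered to probes well above background in at least 5 arrays of a group (30793 of 56605 kept), converted to log2, corrected for washing batch, quantile normalised and fitted with limma 3.58.1 in R 4.3.3 (statmod 1.5.0), with array weights, as 1 mean per group. Group means printed are unweighted, so a log2 fold change can differ from their difference. The Benjamini-Hochberg adjustment covered every probe kept. Control and outlier spots were left out. The fit was tested on simulated data.

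The 37 genes and all lists of other genes were chosen with earlier results of these data known. Values in all groups are given for the 10 genes with the largest mean absolute fasting effect, those called in an interaction, and the pairs Cpt1a and Cpt1b, Acaa1a and Acaa1b. Of other lists, at most 5 genes called in the most fasting comparisons are named. Alternatives covered signal column, background correction, scaling, filter, batch, slide, replicate number, weights, samples fitted, probe choice, thresholds and single arrays. Sequences are from RefSeq (GRCm38.p6).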

Additional observations from a re-analysis of the deposited data

Results flagged for a closer look

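In 7 of 224 groups of 6 values, 1 mouse stood far from the other 5, where chance gives about 5%. The measure is the gap to the nearest mouse as a share of the range of the group. In fed p110αhep-/- mice on HFD replicate 3 was low for Slc25a20 (0.678) and Decr1 (0.656), and replicate 4 was high for Hacl1 (0.692). In fasted p110αhep+/+ mice on HFD replicate 1 was low for Hacl1 (0.871) and Pecr (0.762), and replicate 6 was low for Acads (0.628). In fed p110αhep+/+ mice on HFD replicate 3 was high for Ech1 (0.671). Replicate 3 of the fed p110αhep-/- mice on HFD was also the array with the lowest weight.

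The fasting effect differed between diets or genotypes by the limma test of the difference itself for the following genes, on the log2 scale. In p110αhep+/+ mice the effect on HFD minus that on CTRL diet was -0.77 for Cpt1b, -0.70 for Etfdh, -0.67 for Acaa1b, -0.85 for Crot and -1.03 for Ehhadh. In p110αhep-/- mice the same difference was -2.38 for Vnn1, -1.999 for Ehhadh, -1.47 for Acaa1b, -1.36 for Crot, -1.23 for Crat, -1.23 for Decr1, -1.08 for Eci1, -1.07 for Slc25a20, -1.06 for Hadha, -0.99 for Ech1, -0.96 for Acaa1a and -0.95 for Etfdh. For the other genes called there it was -0.89 for Hadhb, -0.88 for Cpt1b, -0.88 for Acadl, -0.82 for Cpt1a, -0.81 for Pex11a, -0.77 for Acadm, -0.72 for Hsd17b4, -0.69 for Hadh, -0.65 for Abcd3, -0.64 for Acadvl and -0.62 for Acads. Between genotypes, the fasting effect in p110αhep-/- minus that in p110αhep+/+ mice on CTRL diet was 0.99 for Acaa1b, 0.85 for Crat, 1.32 for Ehhadh, 1.13 for Pex11a and 1.74 for Vnn1. On HFD it was -0.93 for Crot and -0.61 for Pecr. The difference of these differences between diets was -0.69 for Slc25a20, -0.75 for Hadha, -0.72 for Decr1 and -0.71 for Acaa1a.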

How the results depend on the processing

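The fasting rise on CTRL diet and the smaller fasting effect on HFD kept the sign of their median in every alternative tried. So did the lower level of fed p110αhep-/- mice on CTRL diet. Leaving out single arrays, given further below, is not part of the following ranges. The medians ran from 0.47 to 0.61 (fasting, p110αhep+/+ CTRL) and from 0.69 to 1.03 (fasting, p110αhep-/- CTRL). For the diet by fasting difference they ran from -0.43 to -0.32 (p110αhep+/+) and from -0.79 to -0.67 (p110αhep-/-). Of the 82 single gene calls for fasting and for the interactions none reversed. Over the alternatives the call was kept in 1235 of 1394 cases and lost in 159. The kept cases include 82 with no fold change threshold, where no call could be lost. When 1 array was left out the call was kept in 1445 of 1548 cases. Single gene calls between diets and between genotypes were not part of this count. A batch alone has 3 mice per group, and fewer samples were tested there. The cause of the other changes was not tested. With washing batch 1 alone, the number of genes called was 10 in place of 16 (fasting, p110αhep+/+ CTRL), 1 in place of 0 (fasting, p110αhep+/+ HFD), 2 in place of 4 (fasting, p110αhep-/- HFD), 0 in place of 5 (diet by fasting, p110αhep+/+), 0 in place of 5 (genotype by fasting, CTRL), 0 in place of 2 (genotype by fasting, HFD), 0 in place of 4 (3-way), 0 in place of 1 (HFD, p110αhep+/+ fasted), 1 in place of 5 (HFD, p110αhep-/- fasted), 2 in place of 1 (genotype, CTRL fasted) and 3 in place of 5 (genotype, HFD fasted), and the median was 0.69 in place of 0.88 (fasting, p110αhep-/- CTRL). With no fold change threshold, the number of genes called was 30 in place of 16 (fasting, p110αhep+/+ CTRL), 12 in place of 0 (fasting, p110αhep+/+ HFD), 35 in place of 23 (fasting, p110αhep-/- CTRL), 15 in place of 4 (fasting, p110αhep-/- HFD), 16 in place of 5 (diet by fasting, p110αhep+/+), 13 in place of 5 (genotype by fasting, CTRL), 29 in place of 5 (HFD, p110αhep+/+ fed), 5 in place of 1 (HFD, p110αhep+/+ fasted), 33 in place of 15 (HFD, p110αhep-/- fed), 20 in place of 5 (HFD, p110αhep-/- fasted), 19 in place of 4 (genotype, CTRL fed), 6 in place of 1 (genotype, CTRL fasted), 14 in place of 3 (genotype, HFD fed) and 19 in place of 5 (genotype, HFD fasted). Of all 20486 genes, 2539 then passed as higher and 2388 as lower (HFD, p110αhep+/+ fed), and 1836 and 1427 (fasted). For HFD in p110αhep-/- mice these were 1193 and 1306 (fed) and 1158 and 1062 (fasted). Between genotypes they were 2240 and 2167 (CTRL fed), 2559 and 2520 (CTRL fasted), 3404 and 3346 (HFD fed), and 3919 and 3623 (HFD fasted). For the interactions they were 174 and 310 (diet by fasting, p110αhep+/+) and 353 and 450 (genotype by fasting, CTRL). With a fold change over 2, the number of genes called was 4 in place of 16 (fasting, p110αhep+/+ CTRL), 12 in place of 23 (fasting, p110αhep-/- CTRL), 0 in place of 4 (fasting, p110αhep-/- HFD), 1 in place of 5 (diet by fasting, p110αhep+/+), 9 in place of 23 (diet by fasting, p110αhep-/-), 3 in place of 5 (genotype by fasting, CTRL), 0 in place of 2 (genotype by fasting, HFD), 0 in place of 4 (3-way), 1 in place of 5 (HFD, p110αhep+/+ fed), 0 in place of 1 (HFD, p110αhep+/+ fasted), 1 in place of 15 (HFD, p110αhep-/- fed), 1 in place of 5 (HFD, p110αhep-/- fasted), 2 in place of 4 (genotype, CTRL fed), 1 in place of 3 (genotype, HFD fed) and 0 in place of 5 (genotype, HFD fasted). With the processed signal scaled to the 75th percentile, the number of genes called was 3 in place of 0 (fasting, p110αhep+/+ HFD), 3 in place of 5 (HFD, p110αhep+/+ fed) and 2 in place of 5 (genotype, HFD fasted), and the median was 0.61 in place of 0.48 (fasting, p110αhep+/+ CTRL), 1.03 in place of 0.88 (fasting, p110αhep-/- CTRL), -0.14 in place of -0.028 (HFD, p110αhep+/+ fasted), -0.34 in place of -0.22 (HFD, p110αhep-/- fasted) and 0.041 in place of -0.099 (genotype, HFD fed). With median scaling, the number of genes called was 3 in place of 0 (fasting, p110αhep+/+ HFD), 1 in place of 4 (3-way), 3 in place of 5 (HFD, p110αhep+/+ fed) and 3 in place of 5 (genotype, HFD fasted), and the median was 0.60 in place of 0.48 (fasting, p110αhep+/+ CTRL), 1.01 in place of 0.88 (fasting, p110αhep-/- CTRL) and -0.35 in place of -0.22 (HFD, p110αhep-/- fasted). With the replicate block, the number of genes called was 2 in place of 4 (fasting, p110αhep-/- HFD) and 2 in place of 4 (3-way). With only the groups compared in the fit, the number of genes called was 2 in place of 4 (fasting, p110αhep-/- HFD). With washing batch 2 alone, the number of genes called was 2 in place of 4 (fasting, p110αhep-/- HFD), 1 in place of 5 (diet by fasting, p110αhep+/+), 14 in place of 23 (diet by fasting, p110αhep-/-), 2 in place of 5 (genotype by fasting, CTRL), 0 in place of 2 (genotype by fasting, HFD), 0 in place of 4 (3-way), 2 in place of 5 (HFD, p110αhep+/+ fed), 4 in place of 15 (HFD, p110αhep-/- fed), 3 in place of 5 (HFD, p110αhep-/- fasted) and 3 in place of 5 (genotype, HFD fasted), and the median was 0.11 in place of -0.0063 (fasting, p110αhep-/- HFD), -0.0058 in place of -0.12 (genotype by fasting, HFD) and 0.36 in place of 0.49 (HFD, p110αhep-/- fed). With no filter on dim probes, the number of genes called was 2 in place of 5 (diet by fasting, p110αhep+/+) and 0 in place of 4 (3-way). With no array weights, the number of genes called was 3 in place of 5 (diet by fasting, p110αhep+/+), 0 in place of 2 (genotype by fasting, HFD) and 0 in place of 4 (3-way). With each gene taken as the median of its probes, the number of genes called was 3 in place of 5 (diet by fasting, p110αhep+/+) and 1 in place of 2 (genotype by fasting, HFD). With no washing batch correction, the number of genes called was 0 in place of 4 (3-way) and 3 in place of 5 (genotype, HFD fasted). With normexp background correction, the number of genes called was 3 in place of 5 (HFD, p110αhep-/- fasted). With the slide as a block, the number of genes called was 3 in place of 5 (genotype, HFD fasted). Leaving out each array in turn gave 13 to 17 calls (fasting, p110αhep+/+ CTRL), 0 to 1 calls (fasting, p110αhep+/+ HFD), 21 to 24 calls (fasting, p110αhep-/- CTRL), 0 to 5 calls (fasting, p110αhep-/- HFD), 3 to 6 calls (diet by fasting, p110αhep+/+), 22 to 26 calls (diet by fasting, p110αhep-/-), 5 to 6 calls (genotype by fasting, CTRL), 1 to 3 calls (genotype by fasting, HFD), 0 to 5 calls (3-way), 4 to 6 calls (HFD, p110αhep+/+ fed), 0 to 1 calls (HFD, p110αhep+/+ fasted), 12 to 17 calls (HFD, p110αhep-/- fed), 2 to 7 calls (HFD, p110αhep-/- fasted), 3 to 5 calls (genotype, CTRL fed), 1 to 2 calls (genotype, CTRL fasted), 3 to 3 calls (genotype, HFD fed), 2 to 6 calls (genotype, HFD fasted). The medians then ran from 0.42 to 0.53 (fasting, p110αhep+/+ CTRL), from 0.12 to 0.15 (fasting, p110αhep+/+ HFD), from 0.84 to 0.94 (fasting, p110αhep-/- CTRL), from -0.068 to 0.043 (fasting, p110αhep-/- HFD), from -0.38 to -0.29 (diet by fasting, p110αhep+/+), from -0.78 to -0.66 (diet by fasting, p110αhep-/-), from 0.23 to 0.33 (genotype by fasting, CTRL), from -0.15 to -0.06 (genotype by fasting, HFD), from -0.42 to -0.33 (3-way), from 0.25 to 0.32 (HFD, p110αhep+/+ fed), from -0.064 to -0.0076 (HFD, p110αhep+/+ fasted), from 0.47 to 0.53 (HFD, p110αhep-/- fed), from -0.27 to -0.17 (HFD, p110αhep-/- fasted), from -0.26 to -0.22 (genotype, CTRL fed), from -0.046 to 0.033 (genotype, CTRL fasted), from -0.13 to -0.052 (genotype, HFD fed), from -0.26 to -0.16 (genotype, HFD fasted). The labels do not say that a replicate number marks a shared litter or day. Same-numbered mice of other groups correlated at -0.35 to 0.34 (median 0.01), so the numbers were not taken as pairs, although 15 of 48 arrays matched their own number best, where 8 would if every array of the other groups were equally likely. All 37 genes were well above background on all 48 arrays, Cpt1b and Abcd2 being the dimmest.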
